A study of Mus musculus with 9 samples.

Results

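The genes described here encode the proteins of the cytosolic ribosome. They were taken as every row of the deposited count table whose symbol has the form of a large-subunit (Rpl), small-subunit (Rps), P-stalk (Rplp0 to Rplp2) or Rpsa gene, without the Rps6k kinases, which gave 88 of 11046 rows. Of these, 77 encode a canonical ribosomal protein, 46 in the large 60S subunit and 31 in the small 40S subunit. Another 4 are diverged paralogs (Rpl22l1, Rpl36al, Rpl7l1 and Rps27l), 6 are pseudogene-like or retroposed copies (Rps12l1, Rpl6l, Rpl37rt, Rps27rt, Rps3a2 and Rps3a3), and Rps19bp1 encodes a binding partner of a ribosomal protein rather than a ribosomal protein. Fau, whose product carries a ribosomal protein fused to a ubiquitin-like protein, and Rack1, a scaffold on the 40S subunit, lie outside this naming pattern and were measured beside it.

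The counts came from poly(A)-selected, strand-specific RNA sequencing of 3 mouse tumour lines kept in culture without treatment, with 3 libraries (A, B and C) per line. E0771-BrM is labelled as triple negative breast cancer, B16F10-BrM as BRAF mutant melanoma and 482N1 as lung NSCLC (non-small-cell lung cancer); BrM stands for brain metastatic, and every line is labelled WT. All media held 10% FBS, penicillin/streptomycin and amphotericin B, but E0771-BrM was grown in RPMI 1640 with HEPES and the other lines in DMEM, so line and medium cannot be told apart in any comparison with E0771-BrM. Each line stands for 1 tumour, and the labels do not say whether the 3 libraries of a line came from separate cultures, so p-values measure the spread between these libraries, which may be technical. In bulk RNA a lower level cannot be told apart from fewer cells that express a gene.

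The ribosome is built in the nucleolus from ribosomal RNA and one copy of nearly every ribosomal protein. Its protein genes are among the most heavily transcribed genes of growing cells, and their messages carry a terminal oligopyrimidine (TOP) tract, a C followed by a run of C and T at the very start, through which mTOR and the RNA-binding protein LARP1 control their translation. These short, abundant and spliced messages have also been copied back into the mammalian genome many times, leaving many intronless processed pseudogenes that resemble the parent message. In growing tumour cells the demand for ribosomes is high, and in several proteins a loss of 1 gene copy causes Diamond-Blackfan anaemia in humans.

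Total counts ran from 7332390 to 9293348 per library. The melanocyte gene Dct had 17216 ± 425 CPM (counts scaled to a common library size after edgeR's TMM normalisation, SD, n = 3) in B16F10-BrM. It was also seen in libraries A and C of E0771-BrM, at 0.26% and 0.191% of that level, and in libraries A and C of 482N1, at 0.106% and 0.109%, against 0.0202% and 0.00979% in the B libraries of these lines. Results were therefore also computed with only library B of E0771-BrM and of 482N1, and with each library left out. Keratin 8 (Krt8) had 188 ± 18.7 CPM in E0771-BrM, 0.081 ± 0.070 in B16F10-BrM and 3512 ± 132 in 482N1. Keratin 18 (Krt18), its partner in simple epithelia, was at 0.376 ± 0.374 CPM in the breast line and 4180 ± 223 in the lung line, so 1 of the defining epithelial keratins was close to 0 in E0771-BrM.

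A start of the TOP form was more frequent among these genes than over all genes, though most of them did not begin with it. It is shown first because it was not used to choose them. Of the 57 canonical genes with a start site in the RefSeq promoter table (GRCm38.p6), 13 (22.8%) began exactly with C followed by at least 4 bases that are C or T, against 260 of 8583 genes of the table (3.03%). Such a run began within the first 10 bases in 27 canonical genes (47.4%), against 1799 of all genes (21.0%). The search used the gene's own strand only, and a gene with no match may start elsewhere than its RefSeq record. In the 30-base windows below, read 5′ to 3′ on the gene's strand, 12 bases precede the annotated start and the capitals mark the uninterrupted run of C and T from the start base.
Rpl15: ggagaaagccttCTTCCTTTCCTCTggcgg
Rpl35: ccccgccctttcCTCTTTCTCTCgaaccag
Rps10: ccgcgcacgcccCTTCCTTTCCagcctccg
Rps6: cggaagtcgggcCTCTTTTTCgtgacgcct
Rpl28: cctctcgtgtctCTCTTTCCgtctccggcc

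Rpl15, on chromosome 14, had the longest run of these, 13 bases, and Rpl28, on chromosome 7, a run of 8. Genes with such a start did not all follow one order of the lines. Rps6, which encodes the small-subunit protein phosphorylated downstream of mTOR, had 1200, 1200 and 1110 CPM in E0771-BrM, 1020, 1040 and 989 in B16F10-BrM and 916, 857 and 859 in 482N1. The lines did not overlap, and 482N1 was the lowest. Rpl28 had 624, 521 and 539 CPM in E0771-BrM, 666, 504 and 519 in B16F10-BrM and 1880, 1770 and 1800 in 482N1, and here 482N1 was the highest line by a wide margin.

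The 88 rows together held 13.8 ± 0.513% of all counts in E0771-BrM, 10.3 ± 0.206% in B16F10-BrM and 14.2 ± 0.618% in 482N1 (SD, n = 3). By library these shares were 14.2%, 13.9% and 13.2% in E0771-BrM, 10.3%, 10.4% and 10.0% in B16F10-BrM, and 14.8%, 13.6% and 14.1% in 482N1. All libraries of B16F10-BrM lay below those of both other lines, and the E0771-BrM and 482N1 libraries overlapped. The share differed between the 3 lines (exact permutation test over 1680 assignments, p = 0.0179, adjusted p = 0.0201 over 9 such measures, smallest possible p = 0.00357). By pair, the exact p was 0.1 for B16F10-BrM against 482N1, 0.1 for E0771-BrM against B16F10-BrM and 0.5 for E0771-BrM against 482N1, where 0.1 is the smallest that 3 libraries against 3 allow.

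**Figure D1:**
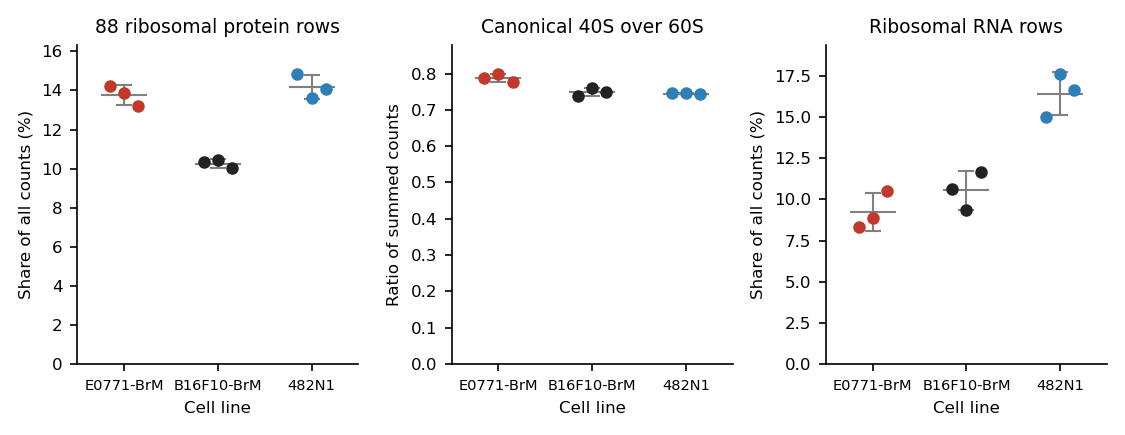
Share of all counts in the 88 ribosomal protein rows (left, %), ratio of summed canonical 40S counts to 60S counts (middle) and share in ribosomal RNA rows, cytosolic and mitochondrial together (right, %). Each panel has 1 point per library and the mean with SD of 3 libraries per line as bars. The B16F10-BrM libraries hold 10.0% to 10.4% of counts in ribosomal protein genes, below every other library, while 482N1 has the most ribosomal RNA, at 15% to 17.6%.

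Ribosomal RNA that passed poly(A) selection moved with the lines as well. The ribosomal RNA rows were Rn18s, of the cytosolic ribosome, and the mitochondrial mt-Rnr1 and mt-Rnr2. Rn18s alone took 7.44 ± 0.809% of counts in E0771-BrM, 7.24 ± 0.797% in B16F10-BrM and 12.3 ± 0.757% in 482N1. Together these rows took 9.24 ± 1.16% of counts in E0771-BrM, 10.5 ± 1.18% in B16F10-BrM and 16.4 ± 1.29% in 482N1. With those rows taken out of the total, ribosomal protein genes held 15.2 ± 0.375%, 11.5 ± 0.103% and 16.9 ± 0.475% in the same order of lines, and no libraries overlapped between lines. When the model described below was refitted without those rows, 21 members were higher and 53 lower in E0771-BrM against 482N1, 8 and 75 in B16F10-BrM against 482N1, and 62 and 10 in E0771-BrM against B16F10-BrM, close to the counts with them. The 40S genes had 0.787 ± 0.0102 counts for each count of the 60S genes in E0771-BrM, 0.75 ± 0.0105 in B16F10-BrM and 0.744 ± 0.00119 in 482N1 (exact permutation p = 0.0179 over the 3 lines, adjusted p = 0.0201, n = 3 libraries per line). E0771-BrM was higher in this ratio than every library of the other lines, and the ranges of B16F10-BrM and 482N1, 0.739 to 0.76 and 0.743 to 0.745, overlapped.

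Of the 77 canonical genes, 76 in E0771-BrM, 75 in B16F10-BrM and 77 in 482N1 were among the tenth of genes with the highest CPM. Their median level was 1280 CPM in E0771-BrM, 1110 in B16F10-BrM and 1820 in 482N1, where the median over all genes tested was 21.2, 21.2 and 21.9 CPM. The median coefficient of variation between replicates was 4.89%, 4.91% and 4.59%, against 9.43%, 9.28% and 10.2% over all genes. Counting noise is smaller at such high levels, and genes matched for level were not compared. Per kilobase of transcript, the highest canonical gene was Rps29 in E0771-BrM at 12300 CPM, Rplp1 in B16F10-BrM at 9680 CPM and Rps12 in 482N1 at 9340 CPM. The lowest were Rpl13a in E0771-BrM at 103 CPM per kilobase and Rpl10 in the others, at 116 in B16F10-BrM and 206 in 482N1. Per kilobase of coding sequence, Rpl41 was instead the highest in every line, at 29900 CPM in E0771-BrM, 19200 in B16F10-BrM and 32500 in 482N1. By that measure the lowest genes were the same. The ranking per transcript depends on which transcript is taken for each gene. Rpl10 and Rpl13a are also among the genes with a sizeable part of their reads in rows of near-identical copies, which are described further on.

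**Figure D2:**
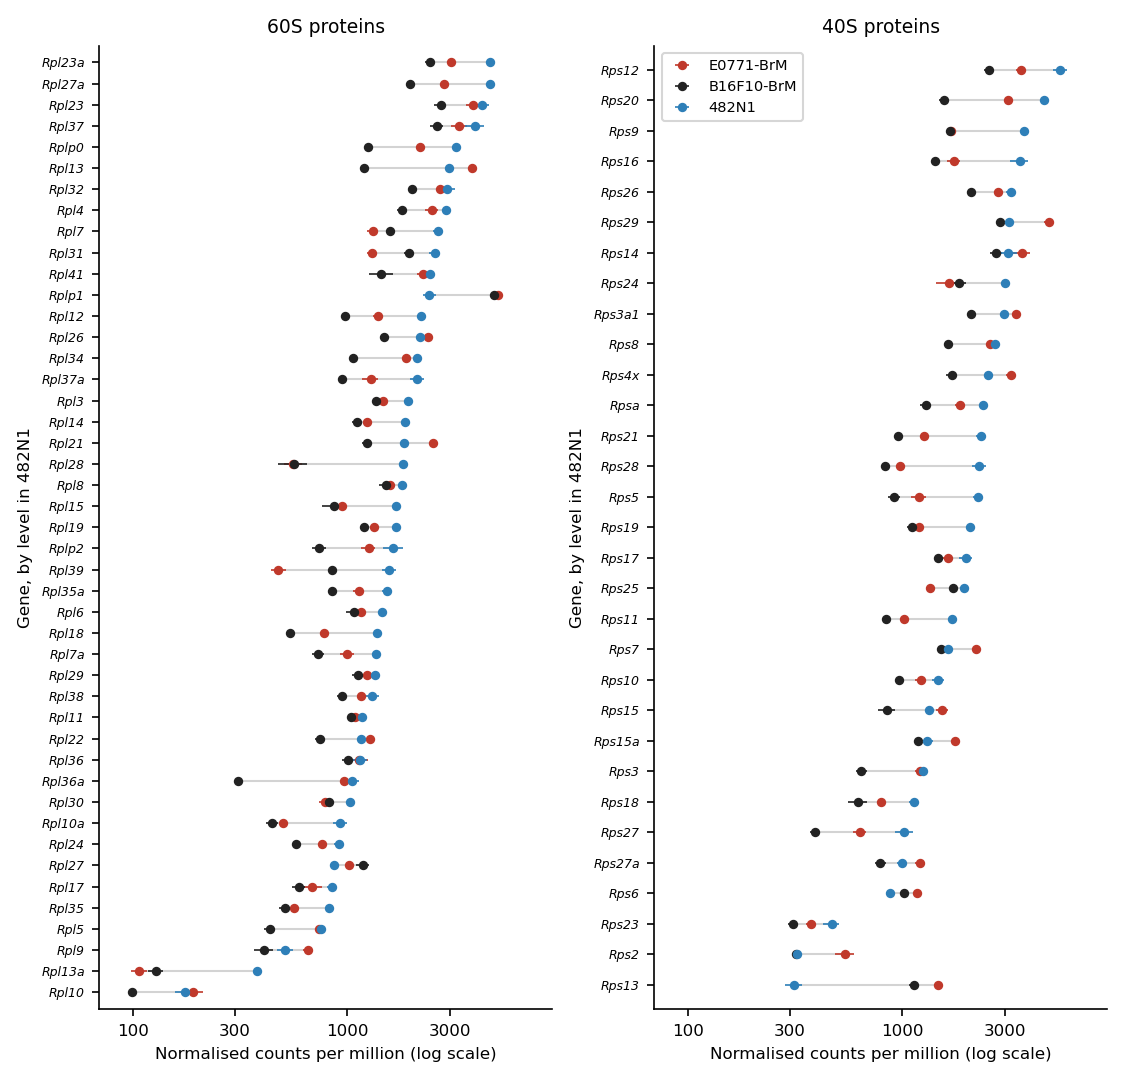
Level of 76 of the 77 canonical genes in the 3 lines, as the mean normalised counts (CPM, log scale) with the SD of 3 libraries, and genes ordered by their level in 482N1 from low at the bottom to high at the top. Most genes run from B16F10-BrM at the low end to 482N1 at the high end, and Rps13 and Rplp1 stand out with 482N1 far below the other lines. Reads in rows of near-identical copies, many for these genes in 482N1, are not added.

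The lines were compared in pairs across all 11037 genes that passed the filter on low counts, which all 88 rows did, with edgeR's quasi-likelihood test and Benjamini-Hochberg adjustment at 0.05. The comparisons share libraries, so their values are given side by side. In E0771-BrM against 482N1, 21 of the 88 rows were higher, where 37.7% of all genes tested were, and 53 were lower, where 40.4% of all genes were. In B16F10-BrM against 482N1, 8 were higher and 76 lower, with 38% and 39.9% of all genes. In E0771-BrM against B16F10-BrM, 64 were higher and 9 lower, with 37.2% and 36.5% of all genes. The median log2 fold change of the 88 rows was -0.29, -0.70 and 0.38 in these comparisons, where that of all genes tested was -0.04, -0.04 and 0.02. With only library B of E0771-BrM and of 482N1, where Dct was lowest, 18 rows were higher and 42 lower, 8 and 69, and 55 and 8 in these comparisons, with medians of -0.25, -0.65 and 0.40. By the libraries alone, 55 rows were lower without overlap in E0771-BrM against 482N1 (40.5% of all genes) and 74 in B16F10-BrM against 482N1 (40.3%), and 64 were higher in E0771-BrM against B16F10-BrM (38.2%).

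Among the 77 canonical genes alone, 16 were higher and 48 lower in E0771-BrM than in 482N1, 4 higher and 71 lower for B16F10-BrM over 482N1, and 59 higher and 6 lower in E0771-BrM than in B16F10-BrM. Their medians were -0.31, -0.69 and 0.41 on the log2 scale, which is a level 1.24-fold lower, 1.61-fold lower and 1.32-fold higher. When a change beyond 1.5-fold was required (edgeR's glmTreat), 3 canonical genes were higher and 20 lower in E0771-BrM than in 482N1 (23.2% and 25.2% of all genes), 2 higher and 39 lower for B16F10-BrM over 482N1 (23.1% and 25.8%), and 17 higher and 1 lower in E0771-BrM than in B16F10-BrM (21.8% and 21.1%). In B16F10-BrM against 482N1, 44 of 46 genes of the 60S and 27 of 31 genes of the 40S were lower. In E0771-BrM against 482N1, 5 of the 60S genes were higher and 30 lower, while 11 of the 40S genes were higher and 18 lower; the difference between subunits was not tested.

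**Figure D3:**
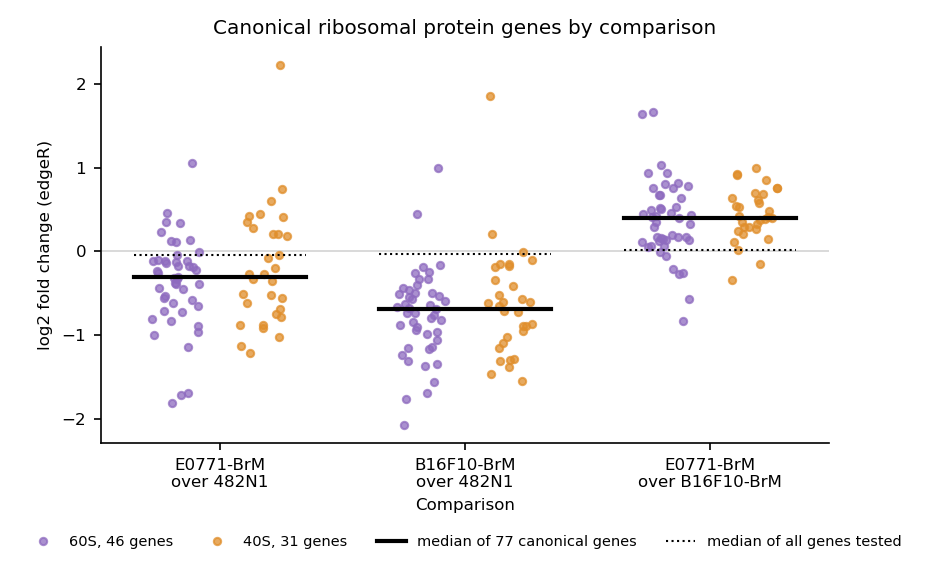
Log2 fold change of each canonical gene in the 3 comparisons (first named line over the second), with 60S and 40S genes side by side, the thick line at the median of the 77 genes and the dotted line at the median of all genes tested. The medians sit at -0.31, -0.69 and 0.41, with Rps13 the highest point in both comparisons with 482N1. Reads in rows of near-identical copies are not added here.

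The commonest order of the lines was 482N1 above E0771-BrM above B16F10-BrM with all 3 differences past the threshold. It held for 34 of 77 canonical genes (44.2%), against 9.89% of all genes tested. B16F10-BrM was the lowest line with no overlap between libraries in 53 canonical genes, where 22.7% of all genes have B16F10-BrM so placed, and 482N1 the highest in 50, where 26.8% of all genes do. The highest line exceeded the lowest by a median of 1.81-fold, and by over 2-fold in 26 of 77 (33.8%). Over the 10705 genes with counts in every line, the median was 2.29-fold and 59.6% exceeded 2-fold. Many of these genes have far lower counts, and genes matched for level were not compared. These signs are relative to the normalisation. TMM factors were 1.05 to 1.08 in E0771-BrM, 1.05 to 1.07 in B16F10-BrM and 0.885 to 0.901 in 482N1, and with library totals alone the counts of members higher and lower were 28 and 36 in E0771-BrM against 482N1, 9 and 65 in B16F10-BrM against 482N1, and 63 and 9 in E0771-BrM against B16F10-BrM. That scaling moved the median of all genes to 0.20, 0.21 and 0.02, and the members' median less that of all genes was -0.25, -0.67 and 0.36 with TMM and -0.24, -0.67 and 0.36 with totals.

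Since a shift of the whole set could hide changes within it, the libraries were also scaled to the sum over the 88 rows. On that scale 29 canonical genes were higher and 30 lower in E0771-BrM than in 482N1, 28 higher and 30 lower for B16F10-BrM over 482N1, and 24 higher and 27 lower in E0771-BrM than in B16F10-BrM. Scaling to the members' own sum fixes such a balance, and on that scale 5197 of 11035 genes were higher and 3373 lower, 6825 higher and 2304 lower, and 2584 higher and 5908 lower in these comparisons. Within 1.5-fold of the set as a whole lay 53, 59 and 68 of the 77 genes in these comparisons, and beyond 2-fold 6, 5 and 3. The same few names returned at the edges. Relative to the set, E0771-BrM was high against 482N1 in Rps13 (log2 difference 2.52), Rplp1 (1.34) and Rps2 (1.03) and low in Rpl13a (-1.53), Rpl39 (-1.43) and Rpl28 (-1.41). B16F10-BrM was high against 482N1 in Rps13 (2.57), Rplp1 (1.71) and Rpl27 (1.15) and low in Rpl36a (-1.06), among others. The values of Rps13 and Rplp1 leave out their near-identical copies, described further on. In 482N1 copies held 76.4% of the combined reads for Rps13 and 49.6% for Rplp1. With TMM factors and copies summed, log2 fold changes of E0771-BrM and B16F10-BrM over 482N1 were 0.19 and -0.19 for Rps13. For Rplp1 they were 0.12 and 0.06.

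The P stalk, which recruits the translation factors to the large subunit, is formed by Rplp0 and by dimers of Rplp1 and Rplp2. Rplp0 had 2230, 2180 and 2150 CPM in E0771-BrM, 1290, 1220 and 1230 in B16F10-BrM and 3270, 3110 and 3280 in 482N1. Rplp2 followed the same order, with 1310, 1320 and 1150 CPM in E0771-BrM, 757, 784 and 679 in B16F10-BrM and 1850, 1530 and 1550 in 482N1. Rplp1 went the other way, at 5100, 5140 and 4810 CPM in E0771-BrM and 4800, 5030 and 4670 in B16F10-BrM, against 2600, 2280 and 2370 in 482N1. Its log2 fold change over 482N1 was 1.05 ± 0.07 (SE) in E0771-BrM and 1.00 ± 0.07 in B16F10-BrM (edgeR adjusted p = 2.71e-19 and 1.59e-18). Neither call of Rplp1 held when its near-identical copies, described further on, were summed with it (log2 fold change 0.12 and 0.06, edgeR adjusted p = 0.0888 and 0.421). That of Rplp0 was -0.56 ± 0.06 and -1.37 ± 0.07 (edgeR adjusted p = 9.28e-11 and 3.42e-24).

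Rpl5 and Rpl11 form the 5S ribonucleoprotein, which is built into the 60S subunit and, when ribosome assembly stalls, binds the p53 ligase Mdm2. Rpl5 had 731, 741 and 733 CPM in E0771-BrM, 409, 438 and 458 in B16F10-BrM and 786, 718 and 766 in 482N1, so that B16F10-BrM was lowest and the others overlapped. Its log2 fold change was -0.80 ± 0.07 for B16F10-BrM over 482N1 and 0.76 ± 0.07 for E0771-BrM over B16F10-BrM (edgeR adjusted p = 7.30e-15 and 5.19e-14), and -0.04 ± 0.07 for E0771-BrM over 482N1 (adjusted p = 0.576). Rpl11 as deposited had 1150, 1070 and 1040 CPM in E0771-BrM, 1010, 1090 and 1030 in B16F10-BrM and 1200, 1150 and 1160 in 482N1. The log2 fold change of Rpl11 for B16F10-BrM over 482N1 was -0.16 ± 0.07 (edgeR adjusted p = 0.0241). That call was lost with upper-quartile factors (adjusted p = 0.153), with library A (0.0814) or C (0.0601) of B16F10-BrM left out and with library A of 482N1 left out (0.0712). Summed with its copies, Rpl11 was higher in E0771-BrM than in both other lines, as given with its copy Gm10036.

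In and around the peptide exit tunnel sit Rpl4, Rpl17, Rpl22 and the small protein Rpl39. In B16F10-BrM all 4 were lower than in 482N1, as were 92.2% of all canonical genes. In E0771-BrM Rpl4, Rpl17 and Rpl39 were lower, as were 62.3% of all canonical genes. Rpl39, which lines the tunnel wall and is encoded on the X chromosome, had the widest range, with 520, 444 and 469 CPM in E0771-BrM, 815, 845 and 895 in B16F10-BrM and 1650, 1430 and 1620 in 482N1. No library overlapped another line's. Its log2 fold change over 482N1 was -1.71 ± 0.07 in E0771-BrM and -0.88 ± 0.07 in B16F10-BrM, and it was 1 of the 6 canonical genes lower in E0771-BrM than in B16F10-BrM (-0.83 ± 0.07; edgeR adjusted p = 1.12e-14). The other 5 were Rpl13a, Rpl27, Rpl31, Rpl7 and Rps25. Rpl31, at the tunnel exit rim, had 1310, 1380 and 1240 CPM in E0771-BrM, 2000, 2000 and 1820 in B16F10-BrM and 2660, 2400 and 2620 in 482N1.

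At the mRNA entry of the small subunit, Rps2 had 598, 485 and 541 CPM in E0771-BrM, 320, 309 and 333 in B16F10-BrM and 317, 312 and 341 in 482N1. E0771-BrM was higher than both other lines, by 0.74 ± 0.07 over 482N1 and 0.76 ± 0.07 over B16F10-BrM on the log2 scale (edgeR adjusted p = 8.74e-13 and 5.61e-13). Its neighbour Rps3 behaved otherwise, with 1270, 1210 and 1150 CPM in E0771-BrM, 635, 614 and 686 in B16F10-BrM and 1300, 1210 and 1220 in 482N1. Rps29, a small zinc-binding protein of the 40S head, was at 4890, 5000 and 4540 CPM in E0771-BrM, 2720, 2940 and 2910 in B16F10-BrM and 3220, 3060 and 3210 in 482N1. E0771-BrM was again the highest line, with a log2 fold change of 0.61 ± 0.07 over 482N1 (edgeR adjusted p = 1.48e-11).

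The widest gaps between the brain metastatic lines were in Rpl13 and Rpl36a. Rpl13, a 60S protein, had 3920, 3690 and 3800 CPM in E0771-BrM and 1260, 1180 and 1160 in B16F10-BrM, with 2940, 3020 and 2960 in 482N1. The X-linked Rpl36a, near the E site of the large subunit, had 998, 948 and 957 CPM in E0771-BrM and 304, 318 and 308 in B16F10-BrM, with 1130, 971 and 1060 in 482N1. For both, B16F10-BrM stood alone at the low end, with log2 fold changes of 1.66 ± 0.07 and 1.64 ± 0.07 for E0771-BrM over B16F10-BrM (edgeR adjusted p = 3.10e-27 and 4.87e-26). Rpl21 and Rps20 also differed by about 2-fold between these lines, at 1.03 ± 0.07 and 1.00 ± 0.07. Rpl10 and Rps4x, also X-linked, had lower levels in B16F10-BrM as well, with log2 fold changes over 482N1 of -0.83 ± 0.09 and -0.57 ± 0.07, while the X-linked Rpl39 was lower there than in 482N1 but higher than in E0771-BrM.

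Against 482N1 the deepest falls of canonical genes in E0771-BrM were those of Rpl13a, Rpl39 and Rpl28, and Rpl36a and Rpl28 were among the deepest in B16F10-BrM. Rpl13a, which outside the ribosome is known for silencing inflammatory messages, had 115, 110 and 97.2 CPM in E0771-BrM, 135, 117 and 133 in B16F10-BrM and 387, 366 and 384 in 482N1. Rpl28 was lower in both brain metastatic lines, by -1.70 ± 0.09 and -1.69 ± 0.09, and between them the log2 fold change was -0.01 ± 0.08 (edgeR adjusted p = 0.957).

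The genes whose human counterparts are mutated in Diamond-Blackfan anaemia, 23 in this list and all measured, had medians near those of the whole set. In E0771-BrM against 482N1, 5 were higher (Rpl27, Rpl9, Rps15a, Rps29 and Rps7) and 15 lower, and in B16F10-BrM against 482N1 1 was higher and 21 lower. In E0771-BrM against B16F10-BrM, 16 were higher and 2 lower. As shares higher and lower these were 21.7% and 65.2%, 4.35% and 91.3%, and 69.6% and 8.7%. All genes tested had 37.7% and 40.4%, 38% and 39.9%, and 37.2% and 36.5%. The median log2 fold changes of the 23 genes, -0.27, -0.60 and 0.33, compare with -0.31, -0.69 and 0.41 over all canonical genes. Rps19, the gene most often affected in that disease, had 1210, 1230 and 1150 CPM in E0771-BrM, 1120, 1150 and 1050 in B16F10-BrM and 2120, 2040 and 2020 in 482N1.

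Only 4 canonical genes were higher than 482N1 in both other lines, namely Rps13, Rplp1, Rpl27 and Rps6. For Rps13 and Rplp1 the count table holds near-identical copies. Among these, the reads of Rps13-ps1 and Gm11942 varied in the opposite direction, and those of Gm10073 in the same direction as Rplp1. Among transcripts of the GENCODE M21 annotation (GRCm38), 178 rows of the table matched a canonical gene's transcript with at least 90% identity over at least 70% of the length of the shorter of both transcripts, of which 163 are annotated as processed pseudogenes. At least 1 such copy was found for 64 canonical genes. In 39 of them the copies held under 2% of the reads of gene and copies together in every line, and in 12 they held over 5% in at least 1 line. How the authors' processing assigned a read that matches several places is not given in the sources used here, so that the values of genes with such copies are uncertain. The copies named below, other than those among the 88 rows, were chosen after their values were seen.

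Rps13, a 40S protein, had 1460, 1530 and 1410 CPM in E0771-BrM and 1090, 1200 and 1110 in B16F10-BrM, against 334, 279 and 325 in 482N1. It had the largest log2 fold change of the canonical genes over 482N1, 2.23 ± 0.07 in E0771-BrM and 1.86 ± 0.07 in B16F10-BrM (edgeR adjusted p = 1.41e-30 and 1.15e-27). The row Rps13-ps1, a processed pseudogene on chromosome 8, had 44.5, 34.2 and 41.8 CPM in E0771-BrM and 39, 30 and 34 in B16F10-BrM, against 1080, 954 and 997 in 482N1. The gene and the copy thus exchanged places in 482N1. Copies took 2.83% of the reads of Rps13 and its copies in E0771-BrM, 3.1% in B16F10-BrM and 76.4% in 482N1. When the rows were summed, the level was 1510 ± 58.9 CPM in E0771-BrM, 1160 ± 53.3 in B16F10-BrM and 1330 ± 88 in 482N1, and the log2 fold change over 482N1 was 0.19 ± 0.07 in E0771-BrM and -0.19 ± 0.07 in B16F10-BrM (edgeR adjusted p = 0.0116 and 0.00877). The coding sequence of 456 bases, stop codon included, differs from the copy at 2 positions, T411C and A429G, counted from the A of the start codon with the gene's base first. Both lie in the stretch of coding bases 346 to 435, shown here on the coding strand with the differing bases in capitals, and the copy keeps the reading frame without a stop.
Rps13: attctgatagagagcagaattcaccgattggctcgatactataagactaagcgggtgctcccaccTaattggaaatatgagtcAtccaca
Rps13-ps1: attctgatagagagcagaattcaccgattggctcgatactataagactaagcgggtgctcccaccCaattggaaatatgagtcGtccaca

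For Rplp1 the row Gm11942, a processed pseudogene on chromosome 4, had 1.02, 1.8 and 1.12 CPM in E0771-BrM and 0.833, 1.13 and 0.816 in B16F10-BrM, against 2430, 2380 and 2310 in 482N1, about the level of Rplp1 itself in that line. Copies took 3.88% of the combined reads in E0771-BrM, 3.93% in B16F10-BrM and 49.6% in 482N1. The reads of the few per cent in the other lines were those of another row, Gm10073 on chromosome 8, annotated as protein coding, with 204, 205 and 194 CPM in E0771-BrM and 197, 209 and 184 in B16F10-BrM, against 3.22, 2.89 and 1.9 in 482N1. Summed with its copies, Rplp1 had 5220 ± 185 CPM in E0771-BrM, 5000 ± 194 in B16F10-BrM and 4810 ± 205 in 482N1. The log2 fold change over 482N1 was then 0.12 ± 0.06 and 0.06 ± 0.06 (edgeR adjusted p = 0.0888 and 0.421). Gm11942 differs from Rplp1 at 9 of 345 coding bases and Gm10073 at 5. Of these, C245T, A246G and C258T are shared, and the stretch of coding bases 175 to 264 holds 5 of the 9 differences of Gm11942.
Rplp1: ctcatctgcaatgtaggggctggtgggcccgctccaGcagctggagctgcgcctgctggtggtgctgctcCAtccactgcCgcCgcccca
Gm11942: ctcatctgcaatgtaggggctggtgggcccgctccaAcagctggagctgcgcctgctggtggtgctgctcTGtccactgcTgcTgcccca

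**Figure D4:**
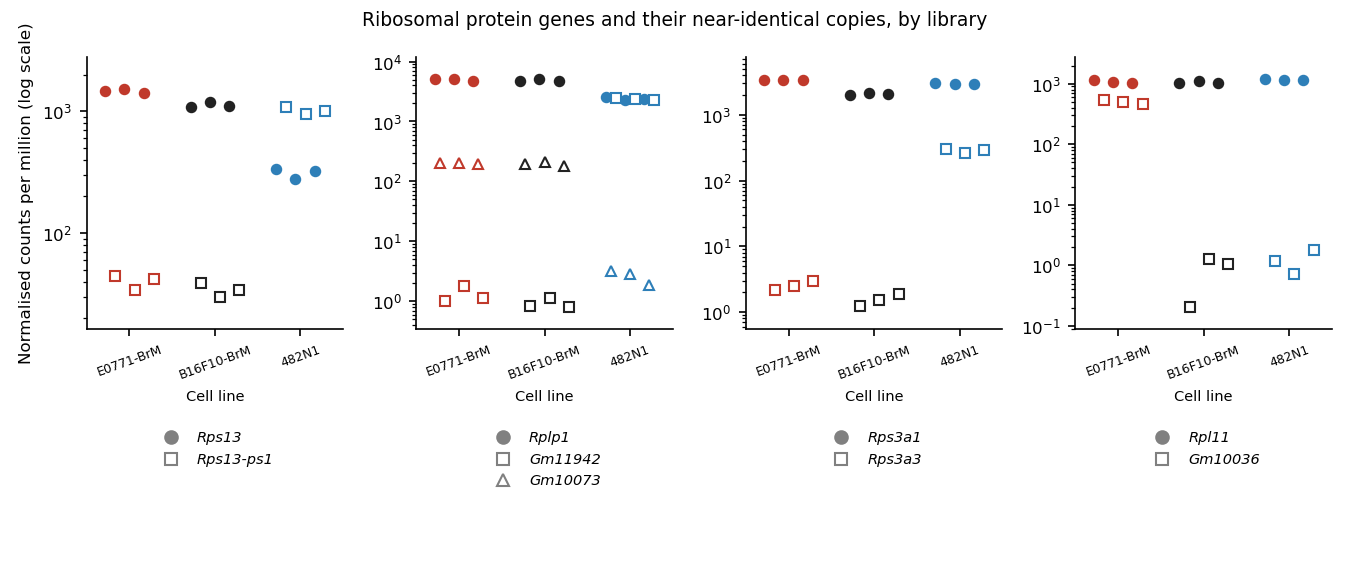
Normalised counts (CPM, log scale, with its own range in each panel) of Rps13, Rplp1, Rps3a1 and Rpl11 (filled) and of near-identical rows (open), with 1 point per library. Rps13-ps1, Gm11942 and Rps3a3 are high in 482N1 only among the 3 lines, Gm10036 in E0771-BrM only, and Gm10073 in E0771-BrM and B16F10-BrM.

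Rps3a3 is a pseudogene-like copy that the naming pattern itself brings in, on chromosome 13. It had 2.16, 2.52 and 2.99 CPM in E0771-BrM and 1.25, 1.51 and 1.86 in B16F10-BrM, against 298, 260 and 288 in 482N1, which made its fall the deepest of all 88 rows (log2 fold change -6.78 ± 0.13 and -7.51 ± 0.14, edgeR adjusted p = 1.97e-40 and 2.36e-41). Its parent Rps3a1, on chromosome 3, encodes a 40S protein near the mRNA exit and had 3380, 3410 and 3360 CPM in E0771-BrM, 2030, 2160 and 2080 in B16F10-BrM and 3020, 2980 and 2970 in 482N1. Copies held 0.483%, 0.509% and 9.39% of the combined reads in E0771-BrM, B16F10-BrM and 482N1. Summing moved the log2 fold change of E0771-BrM over 482N1 from 0.18 for Rps3a1 alone (edgeR adjusted p = 0.0102) to 0.04 (0.587). The sister row Rps3a2 had 1.04 to 2.74 CPM over all libraries. Rps3a3 differs from Rps3a1 at 9 of 795 coding bases, of which T216C and T260C fall in coding bases 177 to 266.
Rps3a1: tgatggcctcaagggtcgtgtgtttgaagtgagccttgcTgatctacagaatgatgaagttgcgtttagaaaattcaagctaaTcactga
Rps3a3: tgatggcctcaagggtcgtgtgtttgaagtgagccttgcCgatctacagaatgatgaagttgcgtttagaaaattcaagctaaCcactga

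In E0771-BrM the copy that stood apart was Gm10036, a processed pseudogene of Rpl11 on chromosome 18. It had 530, 508 and 458 CPM in E0771-BrM, against 0.208, 1.25 and 1.05 in B16F10-BrM and 1.16, 0.722 and 1.77 in 482N1. Copies took 31.7% of the reads of Rpl11 and its copies in E0771-BrM, 0.536% in B16F10-BrM and 0.554% in 482N1. Summed, Rpl11 reached 1590 ± 88.5 CPM in E0771-BrM, 1050 ± 38.5 in B16F10-BrM and 1180 ± 24.3 in 482N1. The log2 fold change for E0771-BrM over 482N1 turned from -0.10 (edgeR adjusted p = 0.148) to 0.43 ± 0.07 (8.12e-08), and that over B16F10-BrM from 0.06 (0.427) to 0.61 ± 0.07 (1.34e-11). Summing thus placed Rpl11 beside Rpl5 in the second comparison, where E0771-BrM was higher in both. The copy differs at 4 of the 534 coding bases that align.

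Some other genes had a sizeable share of their reads in copies in every line. For Rpl36 copies held 30%, 34.5% and 38.9% of the combined reads in E0771-BrM, B16F10-BrM and 482N1, most of it in Rpl36-ps12, which had 489, 424 and 495 CPM in E0771-BrM, 575, 473 and 475 in B16F10-BrM and 699, 708 and 724 in 482N1. For Rpl10 the shares were 24.2%, 21.7% and 28.5%, for Rps23 21.9%, 21.9% and 21.5%, and for Rpl13a 12.5%, 9.16% and 9.34%, so that for Rpl13a the share held by copies was of similar size in the 3 lines. Counted over all copies, these rows had 1.9 ± 0.0674 counts per 100 counts of canonical genes in E0771-BrM, 1.75 ± 0.0793 in B16F10-BrM and 4 ± 0.123 in 482N1 (exact permutation p = 0.00714 over the 3 lines, adjusted p = 0.0129, n = 3 libraries per line). This excess of 482N1 lay in 3 rows: without Rps13-ps1, Gm11942 and Rps3a3 the ratio was 1.87 ± 0.0634 in E0771-BrM, 1.71 ± 0.0755 in B16F10-BrM and 1.67 ± 0.0839 in 482N1. Among the other copies within the 88 rows, Rps12l1, whose 399 bases are identical to the coding sequence of Rps12, had 66.6, 62.9 and 66.8 CPM in E0771-BrM, 54.8, 55.2 and 51.1 in B16F10-BrM and 135, 138 and 124 in 482N1. Rps27rt and Rpl37rt were lower than in 482N1 in both other lines, with log2 fold changes of -1.47 and -1.81 for Rps27rt and -0.74 and -0.96 for Rpl37rt. The 255 coding bases of Rps27 are identical in Rps27rt, so reads there cannot be assigned to either gene by sequence. Rps27 itself had log2 fold changes of -0.69 in E0771-BrM and -1.38 in B16F10-BrM over 482N1. Rpl6l had 2.06 to 5.64 CPM over all libraries.

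Summing every gene with its copies, an alternative chosen after the data were seen, left 83 rows of the set. Of these, 19 were higher and 51 lower in E0771-BrM than in 482N1, 6 higher and 74 lower for B16F10-BrM over 482N1, and 61 higher and 9 lower in E0771-BrM than in B16F10-BrM. The medians of -0.28, -0.69 and 0.39 were close to -0.29, -0.70 and 0.38 of the rows as deposited. The median of the set was thus nearly the same with and without the copies, while the values of Rps13, Rplp1 and Rpl11 changed most. Smaller moves were seen for E0771-BrM over 482N1 in Rpl36, from -0.01 to -0.21, and in Rps3a1, from 0.18 to 0.04.

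The paralogs encode proteins that can take the place of their parent or act outside the ribosome, and their levels moved apart from those of the parents. Rpl22l1, the paralog of Rpl22, which in mice is repressed by the Rpl22 protein, had 71.6, 56.6 and 53.9 CPM in E0771-BrM, 136, 129 and 134 in B16F10-BrM and 411, 380 and 431 in 482N1. Rpl22 had 1260, 1320 and 1250 CPM in E0771-BrM, 706, 746 and 779 in B16F10-BrM and 1210, 1110 and 1180 in 482N1. Of the reads of both, Rpl22l1 took 4.54 ± 0.713% in E0771-BrM, 15.2 ± 0.845% in B16F10-BrM and 25.9 ± 0.821% in 482N1. Its log2 fold change over 482N1, -2.75 ± 0.09 in E0771-BrM and -1.61 ± 0.08 in B16F10-BrM, was the lowest of the set after Rps3a3 in E0771-BrM (edgeR adjusted p = 8.17e-31 and 5.95e-23). The coding sequences match at 75.9% of aligned bases, below the 97.39% to 100% of the copies described above.

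Rpl36al is an autosomal, intronless paralog of the X-linked Rpl36a that encodes a nearly identical protein. It had 582, 629 and 585 CPM in E0771-BrM, 509, 543 and 545 in B16F10-BrM and 344, 306 and 297 in 482N1. Its share of the reads of both genes was 38.2 ± 1.54% in E0771-BrM, 63.2 ± 0.654% in B16F10-BrM and 23 ± 1.1% in 482N1, so that in B16F10-BrM, where Rpl36a was lowest, the paralog had more reads than the parent. The coding sequences of 321 bases differ at 39 positions (87.9% identity), and the stretch from coding base 91 to 180 holds 16 of them.
Rpl36a: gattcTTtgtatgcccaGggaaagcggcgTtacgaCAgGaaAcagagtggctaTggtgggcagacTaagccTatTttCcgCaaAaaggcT
Rpl36al: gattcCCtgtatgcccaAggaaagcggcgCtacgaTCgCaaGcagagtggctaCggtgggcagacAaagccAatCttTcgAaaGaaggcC

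**Figure D5:**
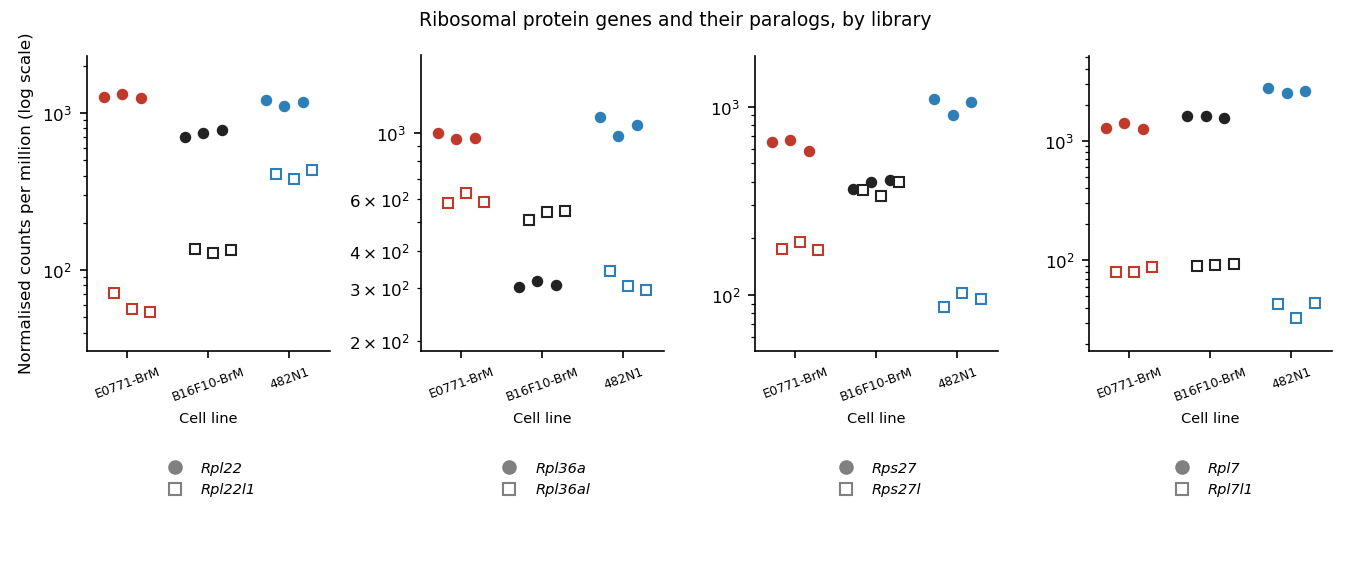
Normalised counts (CPM, log scale, with its own range in each panel) of Rpl22, Rpl36a, Rps27 and Rpl7 (filled) and of their paralogs Rpl22l1, Rpl36al, Rps27l and Rpl7l1 (open), with 1 point per library. Rpl22l1 is highest in 482N1, while the other paralogs are lowest there, and in B16F10-BrM Rpl36al lies above Rpl36a and Rps27l meets Rps27.

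Rps27l, a p53-inducible paralog of Rps27, had 176, 191 and 173 CPM in E0771-BrM, 361, 336 and 398 in B16F10-BrM and 86, 102 and 94.9 in 482N1. Rps27 ran in the opposite order, with 652, 668 and 581 CPM in E0771-BrM, 367, 400 and 410 in B16F10-BrM and 1100, 907 and 1060 in 482N1. The paralog took 22.2 ± 0.876%, 48.2 ± 2.19% and 8.52 ± 1.44% of the reads of both in these lines. Its log2 fold change was 0.93 ± 0.08 for E0771-BrM over 482N1, 1.95 ± 0.08 for B16F10-BrM over 482N1 and -1.02 ± 0.08 for E0771-BrM over B16F10-BrM (edgeR adjusted p = 1.22e-14, 7.55e-27 and 1.42e-16). Rpl7l1, a nucleolar homologue of Rpl7, was higher than 482N1 in both lines, with 79.8, 80.3 and 87.9 CPM in E0771-BrM, 88.6, 91.2 and 93 in B16F10-BrM and 42.8, 32.5 and 43.7 in 482N1. Rps19bp1, an activator of the deacetylase Sirt1 that binds Rps19, had 90.4, 93.8 and 87.3 CPM in E0771-BrM, 126, 129 and 127 in B16F10-BrM and 68.2, 63.4 and 73.5 in 482N1.

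Fau and Rack1, which the naming pattern leaves out, were lower than in 482N1 in both other lines. Fau had 2753 ± 30 CPM in E0771-BrM, 679 ± 49.6 in B16F10-BrM and 3232 ± 134 in 482N1, and its log2 fold change of -2.25 ± 0.07 in B16F10-BrM over 482N1 (edgeR adjusted p = 6.40e-32) was lower than that of any canonical gene. Rack1 had 1087 ± 41.1 CPM in E0771-BrM, 1200 ± 37.3 in B16F10-BrM and 1609 ± 66.5 in 482N1. Other factors known to have TOP messages, 19 of 20 listed being measured, were mostly lower in the comparisons with 482N1. In E0771-BrM 3 were higher, 12 lower and 4 not called, and in B16F10-BrM 2 were higher, 14 lower and 3 not called, while in E0771-BrM against B16F10-BrM 13 were higher and none of the 19 lower. As shares higher and lower these were 15.8% and 63.2%, 10.5% and 73.7%, and 68.4% and 0%. All genes tested had 37.7% and 40.4%, 38% and 39.9%, and 37.2% and 36.5%. The medians of these factors were -0.46, -0.94 and 0.24. Among them, the elongation factor Eef1a1 had 3772 ± 103 CPM in E0771-BrM, 3314 ± 252 in B16F10-BrM and 6529 ± 266 in 482N1, and the initiation factor Eif4b had 343 ± 17.2, 188 ± 13 and 721 ± 26.7 CPM.

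Of the 45 genes for 40S assembly factors, 35 were higher and 4 lower in E0771-BrM than in 482N1, 25 higher and 6 lower for B16F10-BrM over 482N1, and 31 higher and 8 lower in E0771-BrM than in B16F10-BrM. Of 47 measured 60S assembly factors, 31 were higher and 6 lower, 21 higher and 10 lower, and 31 higher and 3 lower in these comparisons. As shares higher and lower, the 40S factors had 77.8% and 8.89%, 55.6% and 13.3%, and 68.9% and 17.8%. The 60S factors had 66% and 12.8%, 44.7% and 21.3%, and 66% and 6.38%. All genes tested had 37.7% and 40.4%, 38% and 39.9%, and 37.2% and 36.5%. The medians were 0.89, 0.36 and 0.53 for the 40S factors and 0.54, 0.15 and 0.36 for the 60S factors. Lyar, a nucleolar factor of pre-rRNA processing, had 406 ± 20.1 CPM in E0771-BrM, 153 ± 2.96 in B16F10-BrM and 98.5 ± 12.1 in 482N1. Mdn1, the AAA ATPase that strips assembly factors from pre-60S particles, had 135 ± 6.9, 89.2 ± 11.9 and 30.3 ± 2.68 CPM. In both comparisons with 482N1 the assembly factors and the ribosomal proteins thus had medians of opposite sign; whether one differs from the other was not tested.

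Of 15 genes for RNA polymerase I and its factors, which transcribe ribosomal RNA, 11 were higher and 3 lower in E0771-BrM than in 482N1, 8 higher and 3 lower for B16F10-BrM over 482N1, and 7 higher and 2 lower in E0771-BrM than in B16F10-BrM. Polr1f, a subunit of that polymerase, had 230 ± 12.8 CPM in E0771-BrM, 134 ± 8.57 in B16F10-BrM and 68.7 ± 6.04 in 482N1. Of 14 snoRNP and nucleolar proteins 11 were higher and 2 lower, 9 higher and 4 lower, and 10 higher and 2 lower in the same comparisons, with Dkc1, the pseudouridine synthase, at 617 ± 6.59 CPM in E0771-BrM, 347 ± 23.7 in B16F10-BrM and 230 ± 24 in 482N1. Initiation factors, 32 genes, were 21 higher and 7 lower, 18 higher and 5 lower, and 18 higher and 7 lower. Of the genes around mTOR, LARP1 and Myc, 23 measured, 10 were higher and 7 lower, 8 higher and 7 lower, and 9 higher and 8 lower, and of 11 genes around the 5S RNP, Mdm2 and p53, 4 were higher and 4 lower, 8 higher and none of the 11 lower, and 2 higher and 7 lower. As shares higher and lower in these comparisons, polymerase I and its factors had 73.3% and 20%, 53.3% and 20%, and 46.7% and 13.3%. The snoRNP and nucleolar proteins had 78.6% and 14.3%, 64.3% and 28.6%, and 71.4% and 14.3%. Initiation factors had 65.6% and 21.9%, 56.2% and 15.6%, and 56.2% and 21.9%. The mTOR, LARP1 and Myc genes had 43.5% and 30.4%, 34.8% and 30.4%, and 39.1% and 34.8%. The 5S RNP, Mdm2 and p53 genes had 36.4% and 36.4%, 72.7% and 0%, and 18.2% and 63.6%. All genes tested had 37.7% and 40.4%, 38% and 39.9%, and 37.2% and 36.5%. Larp1, which holds TOP messages, had 275 ± 21.3 CPM in E0771-BrM, 256 ± 11.4 in B16F10-BrM and 128 ± 4.65 in 482N1. Myc, a transcription factor that drives ribosome production, had 43.4 ± 5.76 CPM in E0771-BrM, 3.66 ± 0.862 in B16F10-BrM and 22.9 ± 4.93 in 482N1.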

How the data were processed

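The authors deposited raw read counts per gene symbol for the 9 libraries. Per the submitters' processing notes, FastQC, TopHat2 2.0.10, Bowtie 1.0.0, SAMtools 0.1.19, Cufflinks 2.2.1 and build GRCm39 were used. The counting tool, the annotation and the treatment of reads with several matches are not given in the sources used here. The members and lists were chosen with earlier results of these data known.

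Counts were fitted in R 4.3.3 with edgeR 4.0.16 (filterByExpr, which removed 9 of 11046 genes, TMM factors, robust quasi-likelihood F tests, 2-sided, all 9 libraries, common dispersion 0.0059), with Benjamini-Hochberg adjustment over the 11037 genes tested. Levels are TMM-scaled CPM, with the SD of 3 libraries, and fold changes are given with the SE. Named were, per comparison, the 8 highest and 8 lowest members called, all paralogs and copies, the P stalk, 5S RNP and X-linked genes, the highest and lowest by length, the 8 that moved most relative to the set, and up to 3 genes per outside list. The text prints a selection, and some items are not reported here. Rps13-ps1, Gm11942, Gm10073, Gm10036, Rpl36-ps12, Rps3a1, Rps3, Rps27, Rpl22, Rps19, Rpl15, Eef1a1 and the genes shown for their start were named after their values were seen or as partners of named genes. Copies, lengths and coding sequences came from GENCODE M21 and starts from RefSeq, both on GRCm38, so no coordinates are given. RefSeq gave a start for 64 of the 88 rows. The alternatives were DESeq2 1.42.0, limma-voom 3.58.1, other factors, filters, blocks, thresholds and left-out libraries. The fit was tested on simulated data with known changes. Same-letter libraries of different lines correlated by -0.01 to 0.09 in their deviations from line means, so letters were not taken to pair them.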

Additional observations from a re-analysis of the deposited data

How the results depend on the processing

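The counts of members called with DESeq2 and limma-voom stayed within 1.5 times of those reported, and leaving out 1 library at a time gave 19 to 21 higher and 50 to 56 lower in E0771-BrM against 482N1, 8 higher and 70 to 76 lower in B16F10-BrM against 482N1, and 56 to 65 higher and 8 to 10 lower in E0771-BrM against B16F10-BrM. The library letters did not pair the samples, and a replicate block on them gave 21 higher and 53 lower, 8 and 76, and 64 and 10 in these comparisons. With libraries scaled to the sum over members, 34 were higher and 35 lower, 33 and 35, and 24 and 32, with medians of -0.003, 0.003 and -0.044. Single genes that turned are listed in this section only where they were named for that comparison. Among these, log2 fold changes that then turned were, for E0771-BrM over 482N1, Rpl41 at 0.167, Rpl5 at 0.246, Rpl11 at 0.181, Rpl36a at 0.163 and Fau at 0.054. For B16F10-BrM over 482N1 they were Rpl11 at 0.545, Rps4x at 0.141, Rack1 at 0.286, Mtor at 0.641, Gm10036 at 0.114 and Rps3a1 at 0.189. For E0771-BrM over B16F10-BrM they were Rpl36al at -0.253, Rpl37rt at -0.199, Rps12l1 at -0.136, Rps27rt at -0.077, Rplp1 at -0.367, Rpl11 at -0.363, Larp1 at -0.314, Rn18s at -0.379, Rps13-ps1 at -0.2 and Gm10073 at -0.387. Further members not named for the comparison turned on this scale as well. Among them were Rpl36 at 0.275 for E0771-BrM over 482N1, Rps7 at 0.602 and Rps25 at 0.533 for B16F10-BrM over 482N1, and Rpl3 at -0.309 for E0771-BrM over B16F10-BrM. With library totals alone, chosen after seeing the data, the medians over 482N1 were -0.044 in E0771-BrM and -0.459 in B16F10-BrM. Rpl41 at 0.127, Rpl5 at 0.203, Rpl11 at 0.141, Rpl36a at 0.12 and Fau at 0.014 turned for E0771-BrM over 482N1, and Rpl11 at 0.081 and Mtor at 0.178 for B16F10-BrM over 482N1. Upper-quartile factors gave a median of -0.642 for B16F10-BrM over 482N1 and turned Gm10073 to -0.004 for E0771-BrM over B16F10-BrM. With only library B of E0771-BrM and of 482N1, also chosen after seeing the data, each lone library was taken to have the spread of the B16F10-BrM libraries. The median for B16F10-BrM over 482N1 was then -0.647, Rps3a2 (-0.621) and Rpl5 (0.046) turned for E0771-BrM over 482N1, Rpl6l (-0.5) and Gm10036 (0.152) for B16F10-BrM over 482N1, and Rps27rt (-0.186), Larp1 (-0.022), Rn18s (-0.01) and Rps13-ps1 (-0.01) for E0771-BrM over B16F10-BrM. Summing members with their copies turned Rpl11 to 0.433 for E0771-BrM over 482N1 and Rps13 to -0.192 for B16F10-BrM over 482N1, by the reads added. Leaving out single libraries moved Rps3a2 between -0.111 and 0.291 for E0771-BrM over 482N1, Rpl6l between -0.102 and 0.533 for B16F10-BrM over 482N1, and Rn18s between -0.058 and 0.124 and Gm10073 between -0.01 and 0.079 for E0771-BrM over B16F10-BrM. A minimum of 10 CPM, which tests fewer genes, gave a median of -0.359 for E0771-BrM over 482N1. Requiring 1.5-fold, a stricter rule, left 6 higher and 24 lower for E0771-BrM over 482N1, 44 lower for B16F10-BrM over 482N1, and 17 higher and 3 lower for E0771-BrM over B16F10-BrM. Ribosomal proteins proper alone, a smaller set, gave 4 higher for B16F10-BrM over 482N1. Without the 3 copies high in 482N1, left out after seeing the data, copies had 1.67 counts per 100 canonical counts in 482N1, and without all 5 copies singled out 1.33 in E0771-BrM, 1.5 in B16F10-BrM and 1.67 in 482N1. Without ribosomal RNA rows, which lowers the total, the shares were 15.2%, 11.5% and 16.9% in E0771-BrM, B16F10-BrM and 482N1. Over all alternatives and single genes named, 4185 values kept direction and side of the threshold, 109 kept their direction and lost the call, 13 kept it and gained one, and 47 turned. Other causes were not tested. Depth limits Rps3a2, Rpl6l and the copies at about 1 CPM most.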
